A study of Mus musculus with 9 samples.

Results

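The 8 genes described here are Igj, which encodes the joining chain of secreted immunoglobulin, and 7 genes known from plasma cells, namely Irf4, Prdm1, Xbp1, Derl3, Sdc1, Tnfrsf13b and Tnfrsf17. They are 8 of 23398 rows of the expression tables. Igj was chosen by its measured values, because it was lower in both mutant groups than in wild type, so its difference from wild type is given as a description with no test. The other 7 were selected on their known roles in plasma cells, to ask whether they follow Igj. Igj was far lower in both mutant groups. None of the 6 other genes expressed highly enough to be tested was called in any comparison. That count says little, since only 0.147% of all tested genes were called lower in Ts1Rhr and 0.0827% with Hmgn1 overexpression (normalised values). Among the 6, Derl3 reached the level needed for testing through its mutant libraries.

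The study sequenced polyadenylated RNA from mouse bone marrow cells grown for 7 days in methylcellulose with interleukin-7, which favours early B cell precursors, and pooled the colonies of each culture. The mice were 6 to 8 weeks old, and synthetic ERCC spike-in RNA went into every RNA sample, taken from a fixed number of cells. There were 3 groups of 3 libraries. The labels describe them as wild-type littermates with no stated background, Hmgn1-overexpressing mice on C57BL/6, and Ts1Rhr mice on an FVB x C57BL/6 F1 background. Ts1Rhr is a partial trisomy of the mouse segment that matches the Down syndrome critical region, and Hmgn1, a gene for a nucleosome-binding protein, lies in that segment. The sources used here do not give the promoter or cell type that drives Hmgn1 overexpression. Strain and genotype cannot be told apart between the mutant groups. With the wild-type background not stated, they cannot be told apart in the comparisons with wild type either. The labels call the replicates biological and do not say which mice each came from.

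Plasma cells are the antibody-secreting end stage of the B lineage. IRF4 and BLIMP-1, the product of Prdm1, switch on the secretory programme and switch off B cell identity, and XBP1, activated by the unfolded protein response, enlarges the endoplasmic reticulum (ER). The joining chain links immunoglobulin A and M units into polymers, and early B cell precursors normally make little of it compared with plasma cells.

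All 8 genes had a promoter entry in the RefSeq table for GRCm38.p6 (Igj under its current symbol Jchain), a window of 300 bases that begins 250 bases before the start site. Those of Igj, the gene whose level differed, and Derl3, a target of the unfolded protein response, are shown as the bases before the start site. The submitters' processing notes name the build mm9 for the expression files, so these coordinates do not belong to them. Capitals mark the ETS core GGAA on either strand in Igj, and in Derl3 the fixed letters of the ER stress response element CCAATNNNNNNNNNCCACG, which lies there on the reverse strand.
Igj, chr5:88527898-88528147, minus strand: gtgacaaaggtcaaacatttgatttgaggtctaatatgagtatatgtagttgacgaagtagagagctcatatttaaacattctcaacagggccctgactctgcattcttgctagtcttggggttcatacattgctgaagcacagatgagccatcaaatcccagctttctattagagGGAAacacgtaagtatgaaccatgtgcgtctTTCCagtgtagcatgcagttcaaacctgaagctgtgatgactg
Derl3, chr10:75893148-75893397, plus strand: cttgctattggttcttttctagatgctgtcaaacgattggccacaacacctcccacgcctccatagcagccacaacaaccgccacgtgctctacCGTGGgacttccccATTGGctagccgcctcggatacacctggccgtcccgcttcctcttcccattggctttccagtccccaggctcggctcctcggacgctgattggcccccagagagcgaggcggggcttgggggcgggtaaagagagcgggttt
The ER stress response element, bound by ATF6 and XBP1, was found in 0.119% of 32851 promoter windows, searched on both strands, and among the 8 genes in Derl3 alone, at window positions 95 to 113. It contains a CCAAT box and the letters CCACG, and in Derl3 a GGAA also lies between them. CCAAT by itself was in 37.4% of all windows and in 3 of the 8, and CCACG in 32.8% and in 4 of the 8. The ETS core GGAA was in 96.0% of all windows and in all 8. In Igj it lay at window positions 177 to 180 and 208 to 211. GGAANNGAAA, the composite element of ETS factors with IRF4, was in 2.72% of windows and in 0 of the 8, and GACGTGG, the core of the unfolded protein response element, in 2.42% and in 0 of the 8. GAAANNGAAA, the core of the interferon-stimulated response element, was in 3.44% and in Tnfrsf17. The E-box CANNTG was in 72.3% of windows and in 7 of the 8. These are matches of letters only.

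Values are FPKM (fragment counts scaled to transcript length and to library size) in a raw table and in a table the authors normalised further. The second is called spike-in normalised here, and values come from it unless raw is stated. The summed raw FPKM ran from 447460 to 591233 per library, and read depth is unknown. Hmgn1 was at 58.5 to 67.3 raw FPKM in wild type, 71.9 to 77.2 in the Hmgn1-overexpressing group and 125 to 127 in Ts1Rhr. The 18 pro-B cell markers were all detected in every library. 2 libraries stood apart. Wild-type replicate 1 had 23.1% of its summed raw FPKM in 10 genes, against 12.4% to 18.1% elsewhere, and Ts1Rhr replicate 3 alone expressed the Y-linked Ddx3y (41.8 raw FPKM) and nearly lacked Xist (0.443 raw FPKM).

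Igj was 32.7, 18.4 and 17.7 FPKM in wild-type replicates 1 to 3. In the Hmgn1-overexpressing replicates it was 1.36, 4.03 and 1.57 FPKM. In Ts1Rhr it was 6.30, 6.86 and 2.11 FPKM. Every mutant library was below every wild-type library, and the 2 mutant groups overlapped each other. Mean levels were 23.0 ± 8.44 FPKM in the wild-type group, 2.32 ± 1.49 in the Hmgn1 group and 5.09 ± 2.59 in the Ts1Rhr group (SD, n = 3 each). On the log2 scale the difference from wild type was -3.43 with Hmgn1 overexpression, or 10.8 times lower, and -2.29 in Ts1Rhr, or 4.89 times lower. The 2 differences share the wild-type libraries. Raw FPKM gave the same order, with 30.5, 19.3 and 21.5 FPKM in wild type, 1.59, 3.05 and 1.35 with Hmgn1 overexpression, and 5.02, 6.65 and 2.18 in Ts1Rhr. Of the 10878 genes tested, 8.43% were lower in Ts1Rhr without overlap between libraries and 0.8% were lower in that way with Hmgn1 overexpression (normalised). By raw FPKM these shares were 18.5% and 8.25%. In bulk cultures fewer cells of a type and less RNA per cell cannot be told apart, here or in the results that follow. Without wild-type replicate 1, the highest of all, the Igj differences were -2.01 in Ts1Rhr and -3.14 with Hmgn1 overexpression. Without Ts1Rhr replicate 3, the lowest of its group, the Ts1Rhr difference was -1.74.

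**Figure D1:**
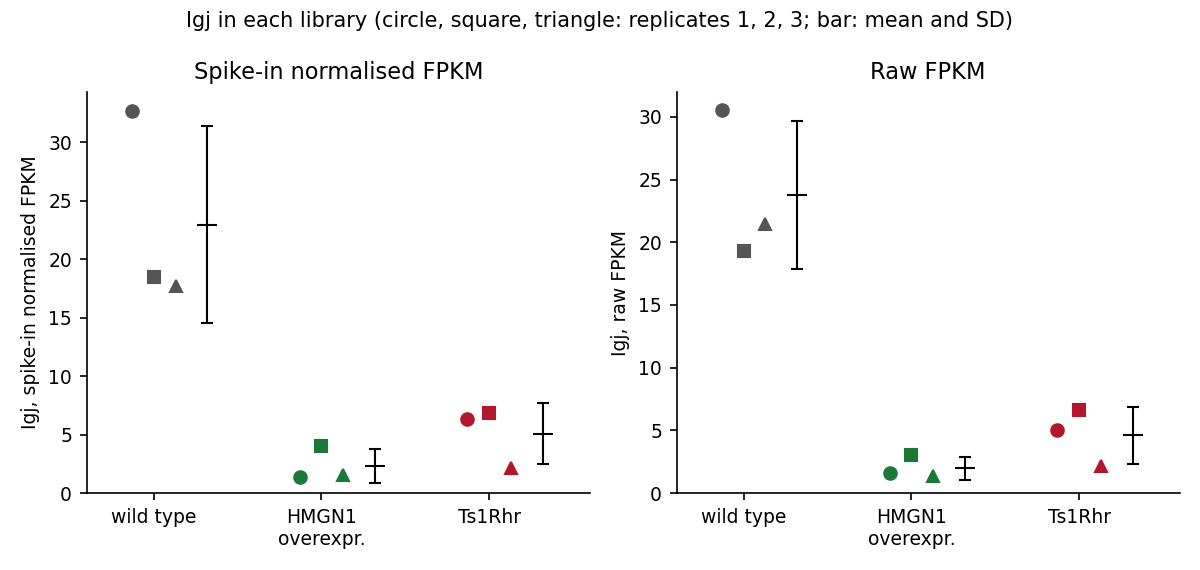
Igj in each of the 9 libraries, as spike-in normalised FPKM on the left and raw FPKM on the right, with the mean and SD of each group (n = 3). The wild-type libraries lie at 17.7 FPKM or above in the normalised table, and the 6 mutant libraries at 6.86 FPKM or below.

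Between the mutant groups, a comparison that did not choose the gene, Igj was 2.20 times as high in Ts1Rhr as with Hmgn1 overexpression (log2 difference 1.14, SE 0.45, 95% interval 1.14-fold to 4.25-fold). The libraries overlapped, since Ts1Rhr replicate 3 was below Hmgn1 replicate 2. The unadjusted limma p was 0.0221 and the Benjamini-Hochberg adjusted p over all genes 0.988, so the difference was not called. In that comparison 0% of the 10878 genes were called by limma, and 475 were at an unadjusted p under 0.05. Without Ts1Rhr replicate 3 the log2 difference was 1.68 (limma, adjusted p = 0.919).

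FPKM is a level per length, so the genes can be set in order. By mean in wild type the order was Irf4 (74.9), Sdc1 (60.3), Xbp1 (44.1), Igj (23.0), Prdm1 (3.02), Tnfrsf13b (2.67), Derl3 (0.646) and Tnfrsf17. The libraries of neighbours overlapped, except that every Igj value was above every Prdm1 value and every Tnfrsf13b value above every Derl3 value. Igj thus stood with the abundant genes in wild type. With Hmgn1 overexpression its mean of 2.32 FPKM was beside that of Prdm1 at 2.31 FPKM, and in Ts1Rhr its mean of 5.09 FPKM lay between Xbp1 at 39.8 and Tnfrsf13b at 3.04 FPKM.

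Irf4, the transcription factor needed at the start of plasma cell differentiation and also active in pre-B cells, had the highest mean of the 8 genes in every group. It was 66.9, 91.3 and 66.4 FPKM in wild type. It was 79.4, 100 and 98.9 FPKM with Hmgn1 overexpression. It was 92.7, 128 and 87.7 FPKM in Ts1Rhr. The groups overlapped, with wild type lowest on average. The fold was 1.37 in Ts1Rhr (limma, adjusted p = 0.335, 95% interval 0.938 to 2.00) and 1.25 with Hmgn1 overexpression (limma, adjusted p = 0.625, 95% interval 0.856 to 1.82). As raw FPKM all 3 Ts1Rhr libraries, at 91.4, 132 and 96.0 FPKM, were above the wild-type ones at 53.9, 85.4 and 83.3, which held for 19.1% of all tested genes. That raw difference was not called either (log2 0.53, limma, adjusted p = 0.119). With Hmgn1 overexpression the raw fold was 1.13 (limma, adjusted p = 0.715), and the libraries overlapped. The mean of Irf4 was thus not lower in the mutant groups, in which Igj was low, and no difference of Irf4 was called.

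Prdm1, the gene of the BLIMP-1 repressor, was expressed at a much lower level. It was 4.21, 2.56 and 2.29 FPKM in wild type. With Hmgn1 overexpression it was 2.18, 3.01 and 1.73 FPKM. In Ts1Rhr it was 1.42, 1.78 and 1.98 FPKM, all below wild type, as for 8.43% of tested genes. The fold was 0.587 in Ts1Rhr (limma, adjusted p = 0.291, 95% interval 0.329 to 1.05) and 0.772 with Hmgn1 overexpression (limma, adjusted p = 0.707). From raw FPKM the Ts1Rhr difference was -1.03 on the log2 scale, a fold of 0.489 (limma, adjusted p = 0.0736), again without overlap, as for 18.5% of tested genes. Of the 6 tested genes other than Igj this was the smallest adjusted p in either table. Without wild-type replicate 1, which had the highest Prdm1, the Ts1Rhr difference was -0.50 against -0.77 with it, both on the log2 scale (limma, adjusted p = 0.668).

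Xbp1, the transcription factor of the secretory programme, was 58.1, 42.6 and 31.5 FPKM in wild type. With Hmgn1 overexpression it was 34.5, 62.4 and 42.2 FPKM. In Ts1Rhr it was 41.1, 44.3 and 34.1 FPKM. The 3 groups overlapped, with the narrowest range in Ts1Rhr. The fold was 0.927 in Ts1Rhr (limma, adjusted p = 0.858, 95% interval 0.615 to 1.40) and 1.05 with Hmgn1 overexpression (limma, adjusted p = 0.933, 95% interval 0.698 to 1.59). The raw intervals were narrower, from 0.748 to 1.17 in Ts1Rhr and from 0.755 to 1.18 with Hmgn1 overexpression. They hold no decrease of the size described for Igj. The tables give gene totals, so the spliced, active form of Xbp1 was not analysed here.

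Derl3, which encodes a channel component that returns misfolded proteins from the ER and whose promoter holds the ER stress response element shown above, was near the detection floor. It was 0.459, 0.434 and 1.05 FPKM in wild type. With Hmgn1 overexpression it was 1.46, 1.62 and 0.963 FPKM. In Ts1Rhr it was 1.82, 0.989 and 1.90 FPKM. Its mean differed from wild type in the direction opposite to Igj, with wild-type replicate 3 inside the range of both mutant groups. The fold was 2.54 in Ts1Rhr and 2.22 with Hmgn1 overexpression. These folds are a description with no test, because Derl3 passed the filter on low values, a mean of 1 raw FPKM over the 9 libraries, through its mutant libraries, since its wild-type raw mean was 0.691 ± 0.281 FPKM (SD, n = 3). Its raw folds were 1.86 in Ts1Rhr and 1.58 with Hmgn1 overexpression.

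Sdc1, the gene of CD138, the surface proteoglycan used to sort plasma cells, was 88.6, 48.9 and 43.6 FPKM in wild type. With Hmgn1 overexpression it was 35.0, 65.1 and 33.8 FPKM. In Ts1Rhr it was 38.5, 49.2 and 40.5 FPKM. The groups overlapped, and wild-type replicate 1 was the highest library. The fold was 0.741 in Ts1Rhr (limma, adjusted p = 0.442, 95% interval 0.472 to 1.16) and 0.742 with Hmgn1 overexpression (limma, adjusted p = 0.588). As raw FPKM every Hmgn1 library, at 36.7, 47.0 and 32.3 FPKM, was below the wild-type ones at 72.8, 47.4 and 54.3, as for 8.25% of tested genes, with a log2 difference of -0.58 (limma, adjusted p = 0.295). Without wild-type replicate 1 the normalised differences were -0.12 in both mutant groups, against -0.43 with it.

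Tnfrsf13b and Tnfrsf17 encode TACI and BCMA, the receptors through which the ligands BAFF and APRIL sustain B cells and plasma cells. Tnfrsf13b was 2.57, 3.83 and 1.60 FPKM in wild type. It was 0.134, 5.14 and 5.88 FPKM with Hmgn1 overexpression, where replicate 1 nearly lacked it and the others were above every wild-type library. It was 4.01, 3.63 and 1.48 FPKM in Ts1Rhr. The intervals of its fold ran from 0.265 to 4.64 in Ts1Rhr and from 0.152 to 2.66 with Hmgn1 overexpression (limma, adjusted p = 0.949 and 0.800). Without Hmgn1 replicate 1 the second difference was 1.13 on the log2 scale instead of -0.65 (limma, adjusted p = 0.201). Tnfrsf17 was listed at 0 raw FPKM in 7 of the 9 libraries, and at 0.375 in wild-type replicate 1 and 1.06 in Ts1Rhr replicate 3. It did not pass the filter and is given by value only, since with no read counts a listed 0 cannot be told from a failed estimate.

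**Figure D2:**
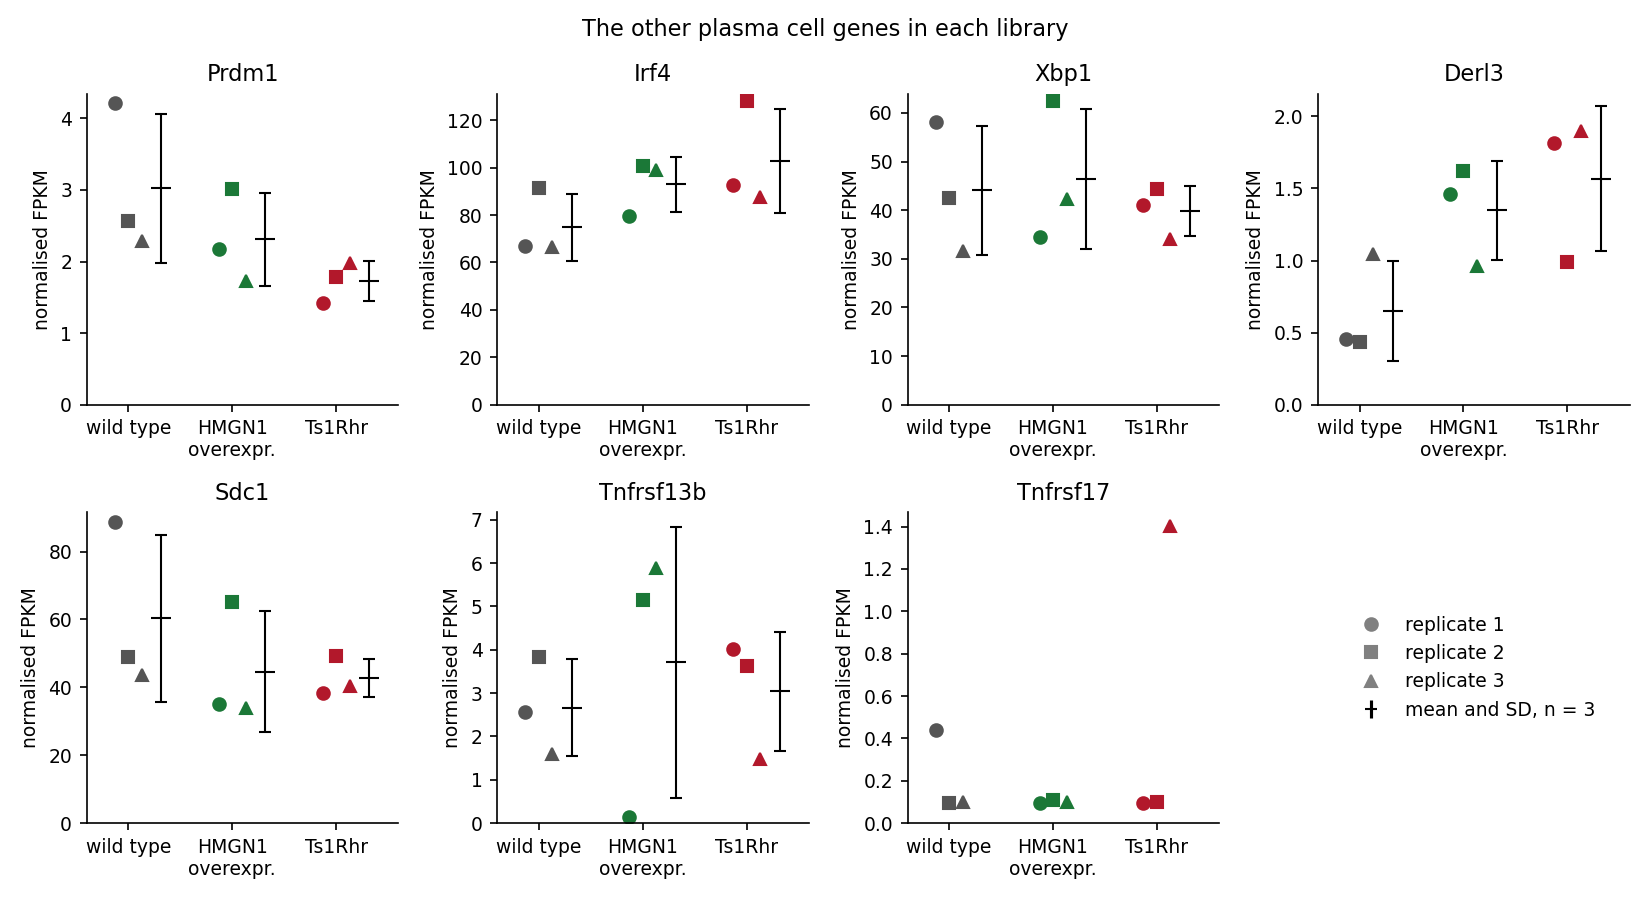
Spike-in normalised FPKM of the 7 other genes in each library, with the mean and SD of each group (n = 3), left out for Tnfrsf17, which is listed at 0 raw FPKM in 7 of 9 libraries. Prdm1 in Ts1Rhr is the one case in which a mutant group lies wholly to one side of wild type.

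Across these genes, 0 of the 6 tested genes other than Igj were called by limma in Ts1Rhr, in either table, with 2 (Prdm1 and Irf4) at an unadjusted p under 0.05 in the raw table and, in the normalised table, only Derl3, whose place among the 6 rests on its mutant libraries. With Hmgn1 overexpression 0 of 6 were called in either table, with 0 at an unadjusted p under 0.05 in the normalised table and 1 (Sdc1) in the raw table. Calls were rare among all genes. In the normalised table limma called 0.147% of genes lower and 0.423% higher in Ts1Rhr, and 0.0827% lower and 0.00919% higher with Hmgn1 overexpression. In the raw table it called 4.56% lower and 4.29% higher in Ts1Rhr, and 0.0368% lower and 0% higher with Hmgn1 overexpression. An unadjusted p under 0.05 was more common, at 19.5% of genes in Ts1Rhr and 11.7% with Hmgn1 overexpression in the normalised table, and 30.9% and 14.6% in the raw table. These shares are the background for the counts at that p in the lists below. A count of 0 among 6 is near the background of calls, so the intervals, and not the missing calls, carry the information. The normalised table is shifted as a whole, with 40.1% of tested genes lower in Ts1Rhr and 27.3% lower with Hmgn1 overexpression and medians of 0.12 and 0.21, against 49% and 48.3% lower and medians of 0.01 and 0.01 in the raw table. Of the 5 genes left without Igj and Derl3, 3 were lower in each comparison in the normalised table, with median log2 differences of -0.11 in Ts1Rhr and -0.37 with Hmgn1 overexpression, and 4 in each by raw FPKM, with medians of -0.16 and -0.58. Prdm1 and Sdc1 were on the lower side and Irf4 on the higher side in both comparisons and both tables, with no call.

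**Figure D3:**
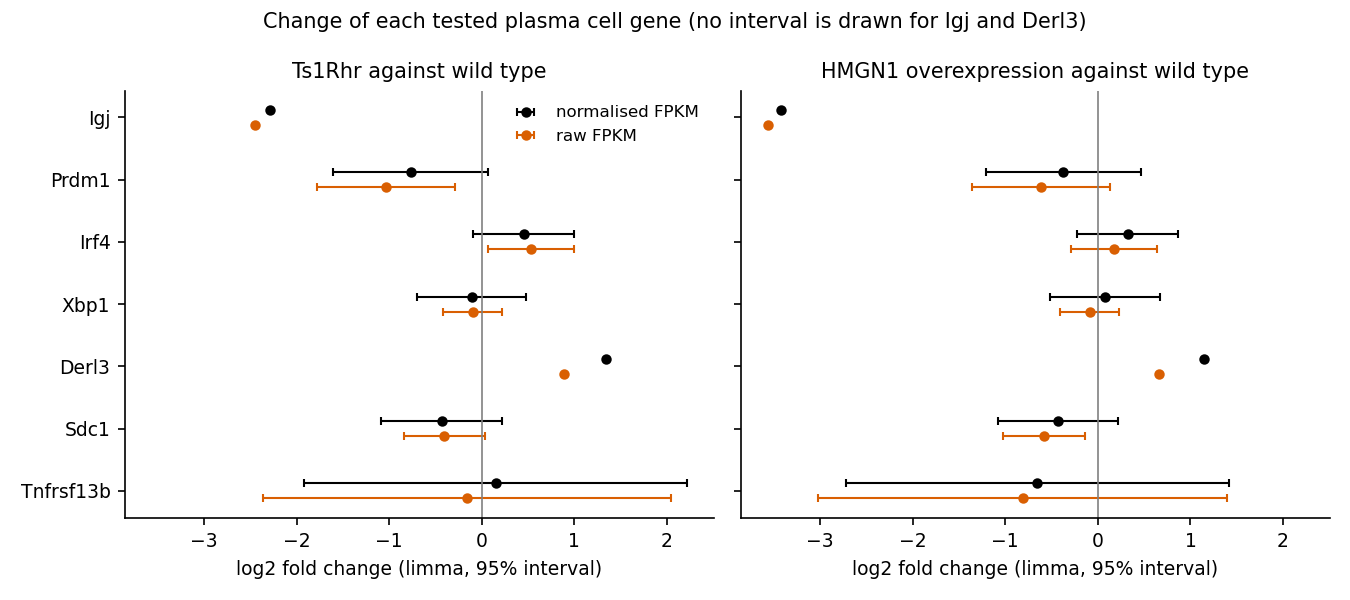
Log2 fold change of each tested gene against wild type, from the normalised (black) and the raw (orange) table, with 95% limma intervals (none for Igj, which was chosen by this difference, and none for Derl3, which passed the filter through its mutant libraries). Igj lies at -2.29 and -3.43 in the normalised table, and the points of the 6 other genes lie between -1.03 and 1.34 over both tables.

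The level of Igj relative to another gene of the same library does not depend on a common scaling factor. As raw FPKM, Igj was 41.9%, 40.8% and 39.6% of Sdc1 in wild-type replicates 1 to 3. It was 4.34%, 6.49% and 4.19% of Sdc1 with Hmgn1 overexpression, and 13.8%, 13.3% and 4.93% in Ts1Rhr. The wild-type libraries were thus alike in this ratio although their Sdc1 and Igj levels differed, and all mutant libraries were below them. Relative to Xbp1, Igj was 46.5% to 62.3% in wild type, 3.35% to 6.76% in the Hmgn1 group and 5.88% to 14.8% in Ts1Rhr. Relative to Irf4 it was 22.6% to 56.6%, 1.41% to 4.28% and 2.28% to 5.50% in the same order. Relative to Prdm1 the gap between wild type and Ts1Rhr replicates 1 and 2 was smaller. Igj was 670% to 854% of Prdm1 in wild type and 60.1% to 136% in the Hmgn1 group, and in Ts1Rhr it was 452%, 416% and 112%. These ratios use the values that chose Igj and are a description.

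Genes beyond the 8 were taken from lists of the same pathways. Of 37 other plasma cell and antibody secretion genes, 29 were tested and 0 were called in either comparison in the normalised table (limma). At an unadjusted p under 0.05 were 5 in Ts1Rhr and 4 with Hmgn1 overexpression, against 19.5% and 11.7% of all tested genes. The median log2 differences of the 29 were -0.10 and 0.04, with 17 and 12 lower. By raw FPKM the medians were -0.24 and -0.18, with 18 and 20 lower, so the sign of the median with Hmgn1 overexpression depended on the table. The highest means belonged to Pou2af1, a B cell coactivator, Mcl1, a survival factor, and Sec11c, a signal peptidase subunit. Pou2af1 was 178 ± 36.8 FPKM in wild type, 279 ± 15.1 in the Hmgn1 group and 238 ± 25.6 in Ts1Rhr (limma, adjusted p = 0.367 and 0.386). Mcl1 was 422 ± 199, 343 ± 105 and 246 ± 36.4 FPKM in that order, and Sec11c 253 ± 104, 262 ± 57.9 and 173 ± 24.0 (SD, n = 3 each). By raw FPKM, 2 of the 29 fell in Ts1Rhr, near the 4.56% of all tested genes called lower there. They were the interleukin-6 receptor gene Il6ra (log2 -0.76, limma, adjusted p = 0.0492) and Glipr1 (log2 -0.78, limma, adjusted p = 0.0372). Mzb1, the gene of an ER protein that assists immunoglobulin secretion, was 46.3 ± 18.9, 72.9 ± 13.7 and 45.2 ± 11.4 FPKM in wild type, the Hmgn1 group and Ts1Rhr (SD, n = 3 each).

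Of 24 immunoglobulin and surrogate light chain symbols, 4 had a row, and the heavy and light chain constant regions were not analysed here. The 4 rows, Vpreb1, Vpreb2, Vpreb3 and Igll1, encode the surrogate light chain or related proteins of early B cells, and 0 were called in the normalised table (limma), with 3 at an unadjusted p under 0.05 in each comparison. Vpreb1 was 120 ± 32.3 FPKM in wild type, 215 ± 51.4 in the Hmgn1 group and 207 ± 28.2 in Ts1Rhr, and Vpreb2 78.9 ± 15.2, 157 ± 34.9 and 153 ± 48.4 (SD, n = 3 each). By raw FPKM Vpreb1, Vpreb2 and Igll1 rose in Ts1Rhr, by 0.96, 1.02 and 0.93 on the log2 scale (limma, adjusted p = 0.0374, 0.0448 and 0.0325). They are 3 of the 4 rows, where 4.29% of all tested genes were called higher.

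The ER arm of the programme was measured by 3 lists, and limma called 0 genes of any of them in either table. Among 29 tested genes of ER folding and the unfolded protein response, 25 were lower in Ts1Rhr, with a median log2 difference of -0.25, and 12 were lower with Hmgn1 overexpression, with a median of 0.02, where 40.1% and 27.3% of all tested genes were lower. By raw FPKM, 21 of the 29 were lower in Ts1Rhr and 22 with Hmgn1 overexpression, where 49% and 48.3% of all were lower, so the smaller count with Hmgn1 overexpression was seen in the normalised table only. At an unadjusted p under 0.05 were 2 in Ts1Rhr and 1 with Hmgn1 overexpression (normalised), and 8 and 1 (raw). The chaperone genes Hspa5, which encodes BiP, Hsp90b1 and Calr were the most abundant. Hspa5 was 351 ± 120 FPKM in wild type, 335 ± 109 in the Hmgn1 group and 234 ± 6.08 in Ts1Rhr (limma, adjusted p = 0.951 and 0.378). Hsp90b1 was 419 ± 143, 444 ± 119 and 362 ± 19.9, and Calr 739 ± 337, 674 ± 210 and 465 ± 63.5 (SD, n = 3 each). Of 22 ER-associated degradation genes, the group to which Derl3 belongs, 18 were lower in Ts1Rhr and 9 with Hmgn1 overexpression in the normalised table, with 1 and 0 at an unadjusted p under 0.05, and 17 and 17 were lower by raw FPKM, with 7 and 3. The 3 most abundant were Vcp at 170 ± 48.5, 185 ± 39.2 and 158 ± 27.1 FPKM, Edem1 at 81.1 ± 17.0, 69.5 ± 30.7 and 61.6 ± 7.56, and Syvn1 at 56.1 ± 12.2, 76.6 ± 12.5 and 64.4 ± 4.18, in the same order of groups. Of 36 tested genes of ER translocation and early secretion, 26 were lower in Ts1Rhr and 12 with Hmgn1 overexpression, with medians of -0.13 and 0.07 and with 1 and 0 at an unadjusted p under 0.05. By raw FPKM 24 and 29 of these 36 were lower, with medians of -0.08 and -0.09, and 6 and 2 were at an unadjusted p under 0.05. Srp14, Sec11c and Tram1 led that list, and Tram1 was 233 ± 56.2, 255 ± 32.4 and 221 ± 37.9 FPKM.

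The next list was drawn up around B lineage factors that hold back plasma cell differentiation, and not all of its genes have that role. It gave 0 calls among 18 tested genes in the normalised table (limma). At an unadjusted p under 0.05 were 8 in Ts1Rhr and 4 with Hmgn1 overexpression, against 19.5% and 11.7% of all tested genes. By raw FPKM 15 and 5 were, against 30.9% and 14.6% of all. In Ts1Rhr 1 was called higher and 1 lower by raw FPKM, where 4.29% and 4.56% of all were. Id2 and Id3, inhibitors of E proteins, and Ets1, an inhibitor of BLIMP-1 activity, were the most abundant. Id2 was 1559 ± 881 FPKM in wild type, 1293 ± 789 in the Hmgn1 group and 573 ± 187 in Ts1Rhr (limma, adjusted p = 0.821 and 0.160). Id3 was 533 ± 222, 538 ± 206 and 282 ± 90.9 FPKM, and Ets1 117 ± 24.9, 192 ± 10.2 and 184 ± 31.6 (SD, n = 3 each). By raw FPKM Ets1 rose in Ts1Rhr by 0.80 on the log2 scale (limma, adjusted p = 0.0458) and Klf4, which restrains B cell proliferation, fell by 1.13 (limma, adjusted p = 0.0333).

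Of the BAFF and APRIL ligands and receptors 3 of 5 were tested and 0 called in the normalised table (limma), with 1 at an unadjusted p under 0.05 in each comparison. Tnfsf13, the gene of APRIL, was 23.0 ± 6.67 FPKM in wild type, 11.3 ± 8.51 in the Hmgn1 group and 8.72 ± 3.51 in Ts1Rhr (SD, n = 3 each). Its log2 difference was -1.44 in Ts1Rhr (limma, adjusted p = 0.109) and -1.28 with Hmgn1 overexpression (limma, adjusted p = 0.302). Its raw value fell by 1.55 on the log2 scale in Ts1Rhr (limma, adjusted p = 0.0438), where 4.56% of all tested genes were called lower. Tnfrsf13c, the BAFF receptor gene, was 14.9 ± 3.00, 16.2 ± 3.94 and 14.0 ± 4.81 FPKM in wild type, the Hmgn1 group and Ts1Rhr. Myeloid cells are a known source of APRIL. The macrophage and monocyte marker sums, given below, were lower in Ts1Rhr than in wild type without overlap. With Hmgn1 overexpression these sums overlapped wild type. The part of myeloid cells in the Tnfsf13 difference was not tested.

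**Figure D4:**
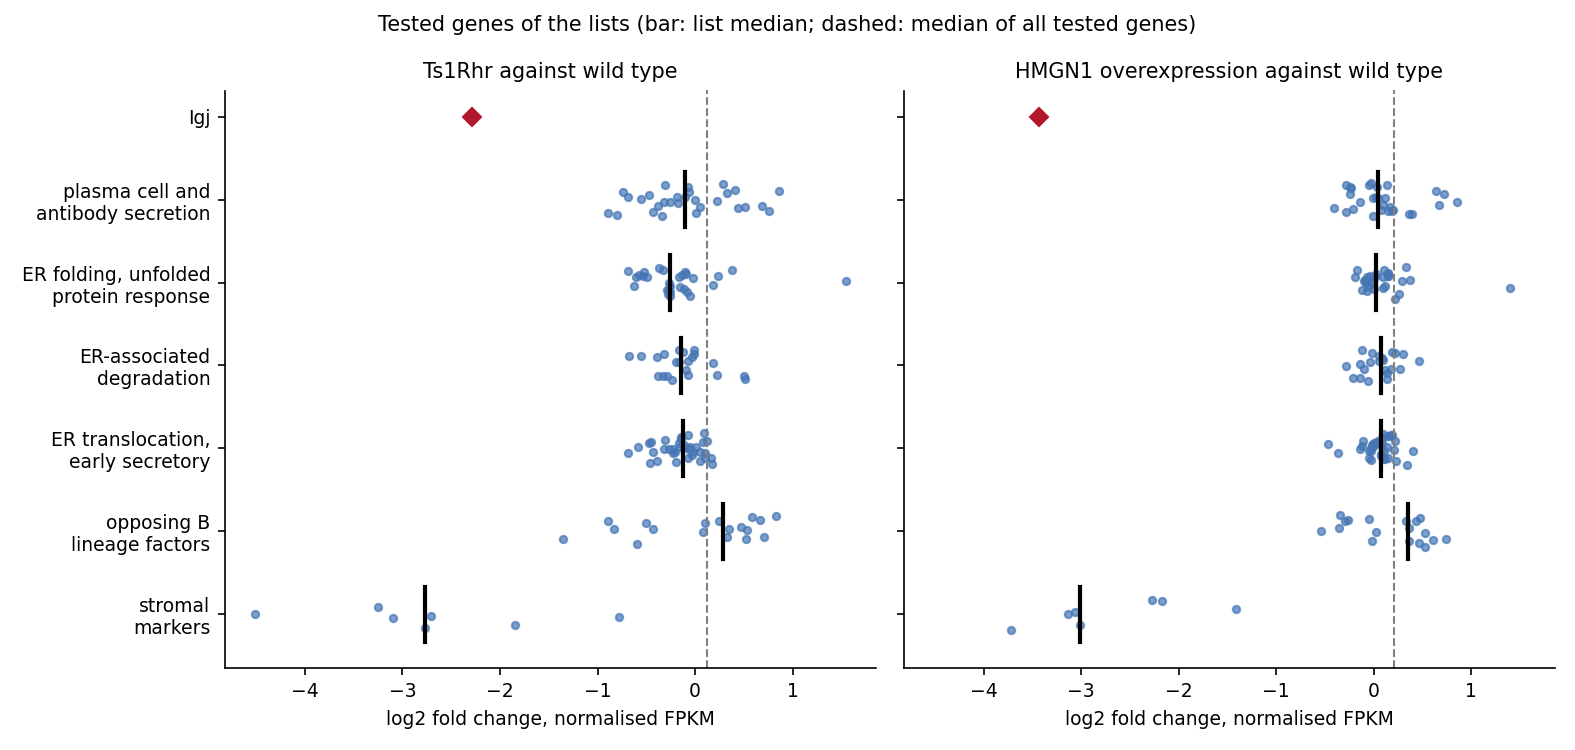
Log2 fold change against wild type (normalised FPKM) of each tested gene in 6 lists, with the list median as a bar, Igj as a diamond and the median of all tested genes as a dashed line. The 5 lists of plasma cell, ER and B lineage factor genes centre between -0.25 and 0.35, and the stromal markers at -2.77 and -3.02.

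Markers of some other cells also differed between the groups. The 13 stromal markers, genes of the adherent bone marrow cells that can persist in such cultures, summed to 97.1 to 141 raw FPKM in wild type, 7.97 to 19.2 in the Hmgn1 group and 9.64 to 21.3 in Ts1Rhr. All 13 had a row, Col1a1 and Cxcl12 were at 0 in 1 library each, and 7 were tested. In the normalised table limma called 6 of the 7 lower in Ts1Rhr and 5 lower with Hmgn1 overexpression, where it called 0.147% and 0.0827% of all tested genes lower. In the raw table it called 6 and 2, the 2 being Sparc and Lox, where it called 4.56% and 0.0368% of all. Sfrp2, a secreted Wnt modulator, was 24.5 ± 4.60 FPKM in wild type, 1.93 ± 0.708 in the Hmgn1 group and 1.60 ± 1.74 in Ts1Rhr (limma, adjusted p = 0.00740 and 0.000991), and Col1a2, a type I collagen chain, 6.65 ± 2.56, 0.861 ± 0.523 and 1.03 ± 0.433 (limma, adjusted p = 0.0256 and 0.0327). Sparc, Bgn and Lox were called in both comparisons of the normalised table too, and Fn1 in Ts1Rhr. The 17 macrophage and monocyte markers summed to 21571 to 32692 raw FPKM in wild type, 12726 to 26605 in the Hmgn1 group and 14034 to 16254 in Ts1Rhr, and 16 were tested. In the normalised values 16 were lower in Ts1Rhr and 15 with Hmgn1 overexpression, where 40.1% and 27.3% of all tested genes were lower. None was called (limma, 12 and 1 at an unadjusted p under 0.05, against 19.5% and 11.7% of all). By raw FPKM 16 were lower in both, and limma called 7 lower in Ts1Rhr (among them Csf1r, Cd68, Emr1 and C1qa) and 0 with Hmgn1 overexpression (5 at an unadjusted p under 0.05). The 18 pro-B cell markers summed to 2726 to 3581 raw FPKM in wild type, 3656 to 5106 in the Hmgn1 group and 3802 to 4576 in Ts1Rhr, and all 18 were tested. In the normalised values 15 were higher in Ts1Rhr and 17 with Hmgn1 overexpression, where 59.9% and 72.7% of all tested genes were higher, and 0 were called (limma, 8 and 10 at an unadjusted p under 0.05). By raw FPKM 16 and 17 were higher, where 51% and 51.6% of all were, and limma called 7 higher in Ts1Rhr (Vpreb1, Vpreb2, Igll1, Rag2, Dntt, Bst1 and Myb) and 0 with Hmgn1 overexpression (11 at an unadjusted p under 0.05). Of all tested genes it called 4.29% and 0% higher in the raw table. The part of stromal, myeloid or pro-B cells in the Igj difference was not tested.

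**Figure D5:**
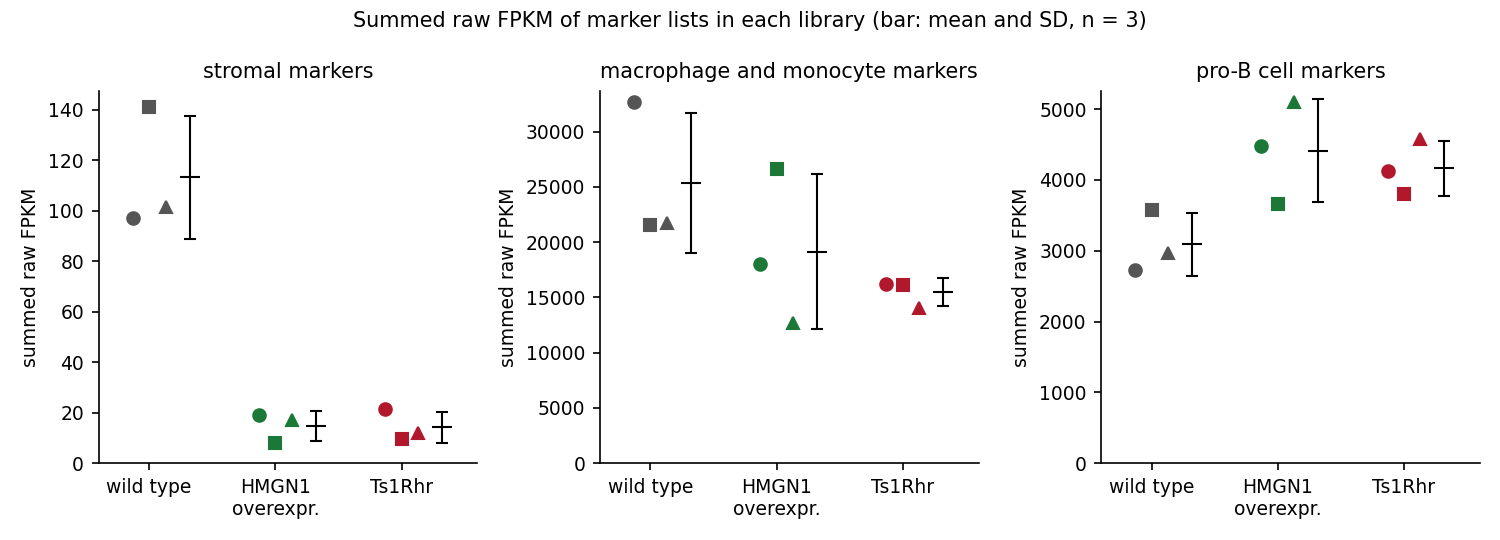
Summed raw FPKM of the stromal, macrophage and pro-B cell marker lists in each library, with the mean and SD of each group (n = 3). The stromal sum is 97.1 or more in the wild-type libraries and 21.3 or less in the 6 mutant libraries, while the other sums differ less.

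Igj is also found in plasmacytoid dendritic cells, so their markers were read. Of 14, 8 were tested and 0 called in the normalised table (limma). At an unadjusted p under 0.05 were 4 in Ts1Rhr and 0 with Hmgn1 overexpression, against 19.5% and 11.7% of all tested genes. In the raw table Bst2 and Pld4 fell in Ts1Rhr, by 1.20 and 0.84 on the log2 scale (limma, adjusted p = 0.0371 and 0.0416), where 4.56% of all tested genes were called lower. With Hmgn1 overexpression 0 were called in the raw table (limma, 1 at an unadjusted p under 0.05). The 14 markers summed to 493 to 630 raw FPKM in wild type, 519 to 800 in the Hmgn1 group and 362 to 493 in Ts1Rhr, mostly from Ly6d, Spib and Irf8, which early B cells also express. The defining Siglech was at 0.431 to 1.55 raw FPKM, Ccr9 at 0.202 to 0.576, and Klk1 at 0 in all 9 libraries. Later B cell stage markers gave 0 calls among 8 tested in either table (limma, 1 at an unadjusted p under 0.05 in Ts1Rhr and 0 with Hmgn1 overexpression in the normalised table, 2 and 2 in the raw table), with sums of 414 to 455, 336 to 487 and 312 to 407 raw FPKM. Every raw sum in Ts1Rhr was below every wild-type sum, a separation that 18.5% of single tested genes had. The normalised sums overlapped, at 304 to 372 FPKM in Ts1Rhr and 328 to 589 in wild type. The raw sums with Hmgn1 overexpression overlapped wild type. H2-Aa and Cd37 had the highest means of the list (179 and 148 raw FPKM), and H2-Aa is also on the classical dendritic cell list.

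The genes whose pattern over the 9 libraries was most like that of Igj were ranked by Pearson r on log2 normalised FPKM among 8189 genes with a mean of at least 5 raw FPKM. The wild-type libraries stood apart from the mutant ones in Igj, so r mostly ranks genes by that split, and it is given as a description. First came Fkbp9, a prolyl isomerase of the ER (r 0.93, raw 0.953), Ckap4, an ER membrane protein (r 0.919, raw 0.93), and Lox, the collagen cross-linking enzyme and one of the stromal markers (r 0.908, raw 0.896). Fkbp9 was 11.1, 6.70 and 7.49 FPKM in wild type, 2.54, 5.62 and 3.06 with Hmgn1 overexpression, and 5.79, 3.76 and 2.87 in Ts1Rhr. Lox was 12.9, 12.2 and 9.20 FPKM in wild type, 2.95, 2.59 and 2.07 with Hmgn1 overexpression, and 4.20, 2.83 and 2.65 in Ts1Rhr. In both genes every mutant library was below every wild-type one, which the choice by likeness to Igj favours, so it adds no support. In the normalised values Ts1Rhr replicate 3 was the lowest of its group in all 3 genes. By raw FPKM Lox was lower in Ts1Rhr replicate 2 (2.66) than in replicate 3 (2.80). Wdfy1, Rpl26, Mmp13, Il4ra and Qpct completed the 8, with r from 0.846 to 0.859. Rpl26 is listed at 0.01 raw FPKM in 4 libraries, which may be a failed estimate for a ribosomal protein gene. Among the plasma cell genes that entered the ranking, Sdc1 had r 0.677 (raw 0.818) at rank 198, Xbp1 0.285 (raw 0.51) at rank 2121, and Irf4 -0.384 (raw -0.365) at rank 6252. The other 4, Prdm1, Tnfrsf13b, Derl3 and Tnfrsf17, were below the 5 raw FPKM that the ranking required.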

How the data were processed

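RNA sequencing of 9 libraries in 3 groups was used. The authors deposited 2 tables of FPKM, raw and further normalised, and per the submitters' processing notes they used HISAT, Cufflinks 2.0.0 and mm9. The sources used here do not say how normalisation was done. Its values already hold an offset near 0.1. Read depth is unknown, so no counting error can be given.

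Of 23398 rows, 92 spike-in rows and 27 rows with dates for symbols were left out. The 10878 rows with a mean of at least 1 raw FPKM were tested in 1 fit of all libraries (limma 3.58.1 with its trend option, R 4.3.3) on log2 normalised FPKM and on log2(raw FPKM + 0.1). P-values were Benjamini-Hochberg adjusted over all tested rows, and called means an adjusted p under 0.05. A fold on a scale with an offset understates changes of low genes. The code was tested on simulated data.

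The genes and the 18 other lists were chosen with earlier results of these data known. From a list the text names all genes called against wild type in the normalised table, otherwise the 3 with the highest mean raw FPKM, plus the 8 genes most like Igj. Mzb1, genes called in the raw table alone, the marker genes given for detection and the library checks were named after their values were seen. Alternatives covered the table, pseudocount, filter, scaling, trend, samples in the fit, replicate block and each library left out.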

Additional observations from a re-analysis of the deposited data

How the results depend on the processing

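The count of called plasma cell genes other than Igj stayed at 0 in every comparison and alternative run. The Igj log2 difference kept its direction, from -2.59 to -1.74 in Ts1Rhr, from -3.92 to -2.88 with Hmgn1 overexpression (-2.88 at a pseudocount of 1) and from 0.83 to 1.68 between the mutant groups, where its adjusted p (limma) ran from 0.299 to 1.00. The number of genes called over all rows depended strongly on the processing, and the cause was not tested. In Ts1Rhr against wild type it was 62, but 963 from raw FPKM, 940 from raw FPKM with pseudocount 1, 8 without a filter, 693 with the same median in every library, 120 with 1 spike-in factor per library, 267 with only the 2 groups compared, and 4 to 203 when 1 library was left out (4 without wild-type replicate 3, 5 without Ts1Rhr replicate 2, 12 without Ts1Rhr replicate 3, 17 without wild-type replicate 1, 34 without wild-type replicate 2, 41 without Ts1Rhr replicate 1, 125 and 203 without Hmgn1 replicates 2 and 1). With Hmgn1 overexpression it was 10, but 4 from raw FPKM, 19 at pseudocount 1 in either table, 4 without a filter, 57 with 1 spike-in factor, 19 without the intensity trend, 18 with only the 2 groups compared, and 1 to 17 when 1 library was left out (1 without wild-type replicate 2 or 3, 17 and 16 without Hmgn1 replicates 2 and 3). Between the mutant groups it was 0, but 1 at pseudocount 1, 43 with 1 spike-in factor, and 0 to 3 when 1 library was left out.

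The replicate block gave 119 called genes in Ts1Rhr, 15 with Hmgn1 overexpression and 5 between the mutant groups, and no call among the plasma cell genes. The labels do not tie libraries of the same number together, and a check did not show such pairing. The correlation of deviations between libraries of the same number ran from -0.132 to 0.156 over 9 pairs. A library correlated best with its own number in 3 of 18 checks. With 3 libraries a group this cannot exclude a shared batch or litter, and the block fit called more genes than the main fit in each comparison.

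Counted over each gene, comparison and alternative, 28 results turned direction, 360 stayed the same and 2, for Igj, changed in size only. The 28 belonged to 5 uncalled genes, all by limma with adjusted p above 0.05. In Ts1Rhr against wild type (log2) Tnfrsf13b, at 0.15, became -0.16 in the raw table, -0.11 there with pseudocount 1, -0.0055 with 1 spike-in factor, and -0.17 to 0.61 with 1 library left out, and Xbp1, at -0.11, became 0.0696 with 1 spike-in factor and ranged from -0.33 to 0.11 with 1 library left out. With Hmgn1 overexpression Xbp1, at 0.07, became -0.0864 in the raw table, -0.0846 there with pseudocount 1, -0.13 with the same median, -0.0188 with 1 spike-in factor, and -0.16 to 0.30 with 1 library left out, and Tnfrsf13b, at -0.65, became 0.0314 at pseudocount 1 and -1.60 to 1.13 with 1 library left out. Between the mutant groups Sdc1, at 0.00, became 0.18 in the raw table, 0.17 there with pseudocount 1, 0.0701 with the same median, 0.28 with 1 spike-in factor, and -0.17 to 0.31 with 1 library left out, Xbp1, at -0.18, became 0.0884 with 1 spike-in factor and -0.37 to 0.0531 with 1 library left out, and with 1 library left out Tnfrsf13b ran from -0.98 to 1.75, Irf4 from -0.0358 to 0.24 and Derl3 from -0.0321 to 0.50. A lone or paired library left in a group was assumed to vary like the others. Depth is unknown, and Derl3 and Tnfrsf17, near or below 1 FPKM, are the least certain values.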

Other observations

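The remaining marker lists describe cells that the cultures could also hold. Of 12 tested neutrophil markers 11 were lower in Ts1Rhr and 12 with Hmgn1 overexpression, and of 7 tested classical dendritic cell markers 7 and 5 were lower, with 0 called in either list in either table (limma, 2 and 1 neutrophil genes and 3 and 0 dendritic cell genes at an unadjusted p under 0.05). These counts are from the normalised table, and by raw FPKM 12 and 12 neutrophil and 7 and 6 dendritic cell markers were lower (limma, 3 and 5 and 6 and 2 at an unadjusted p under 0.05). Of all tested genes 40.1% and 27.3% were lower in the normalised table, and 49% and 48.3% by raw FPKM. At an unadjusted p under 0.05 were 19.5% and 11.7% of all in the normalised table, and 30.9% and 14.6% by raw FPKM. S100a9, a neutrophil granule gene, was 81.9 ± 38.0 FPKM in wild type, 74.6 ± 69.0 in the Hmgn1 group and 57.8 ± 28.1 in Ts1Rhr (SD, n = 3 each). Of 13 T and NK cell markers 3 were tested and 0 called (limma, 1 in each comparison at an unadjusted p under 0.05), with Lck, a kinase gene also used by early B cells, highest at 16.6 ± 3.69 FPKM in wild type and 21.9 ± 5.14 in Ts1Rhr. Of 10 erythroid markers 1 was tested, the carbonic anhydrase gene Car2, which rose in Ts1Rhr by 1.21 on the log2 scale (limma, adjusted p = 0.041), and 4 were at 0 in all libraries. Of 10 mast cell and basophil markers 1 was tested, Kit, the stem cell factor receptor gene also used by early progenitors. Kit rose in Ts1Rhr by 1.65 (limma, adjusted p = 0.0151). Of all tested genes 0.423% were called higher in Ts1Rhr. With Hmgn1 overexpression Car2 and Kit were higher too, by 0.92 and 1.40 on the log2 scale, but were not called. Their libraries did not overlap wild type there, as for 16.6% of tested genes. The 8 plasma cell markers, 7 of the genes above with Mzb1 in place of Tnfrsf13b, summed to 241 to 262 raw FPKM in wild type, 215 to 249 in the Hmgn1 group and 228 to 271 in Ts1Rhr, so the sums overlapped between the groups.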
